A study of Mus musculus with 2 samples.

Results

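The genes described here are 9 genes of the visual cycle, Rpe65, Lrat, Rdh5, Rdh10, Rgr, Rrh, Rlbp1, Stra6 and Ttr, chosen by symbol from the 33456 genes counted in single cells of the mouse ciliary body. All 9 were counted in both libraries and all 9 passed the filter on low counts. The study was an exploration of untreated C57BL/6 mice of wild-type genotype at postnatal day 35, with no comparison between treatments or genotypes. Each of its 2 libraries pooled ciliary epithelium dissected from several animals and dissociated with collagenase, so the replicate is the pool. For library 1 the labels gave 3 sets of eyes, and for library 2 they gave 3 in one field and 4 in another. The comparisons are therefore between cell classes within these pools, each seen in 2 libraries. The p-values measure only how evenly differences between classes repeat in these 2 pools, with the spread estimated over all 22 tested classes. They do not measure the spread between animals.

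The visual cycle returns the chromophore of the photoreceptor opsins to its light-sensitive form. All-trans-retinol reaching the retinal pigment epithelium (RPE) is esterified by LRAT, isomerised to 11-cis-retinol by RPE65 and oxidised to 11-cis-retinal by 11-cis-retinol dehydrogenases, of which RDH5 is the main one in the RPE. The carrier CRALBP, encoded by Rlbp1, binds the 11-cis retinoids in the RPE and in Müller glia, which are held to supply cones by a separate route. Retinol enters the RPE from the blood on retinol-binding protein, which travels bound to transthyretin (Ttr) and is taken up through the receptor STRA6.

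Library 1 held 4764 cell barcodes with 22510387 unique molecular identifiers (UMIs, each counting 1 captured transcript), and library 2 held 6220 barcodes with 30683405 UMIs. After filtering, 3865 and 5466 cells remained, with median depths of 4128 and 2968 UMIs, and 8 kept barcodes occurred in both libraries. Cells were clustered without the 9 genes, and clusters were named from marker genes that were not among them. Of 23 classes, 22 had at least 20 cells in each library and entered the tests, and retinal ganglion cells did not. Of these, 4 are described in depth, and the names mean resemblance to a cell type by these markers. The RPE-like class held 214 and 237 cells in libraries 1 and 2 and passed for 9 of 10 RPE markers, among them Mertk, Kcnj13 and Slc16a8 but not Best1. The pigmented ciliary and iris epithelium-like class held 139 and 218 cells and passed for 10 of 12 markers, and its leading genes Dct, Pmel, Mlana and Trpm1 are pigment-cell genes. The non-pigmented ciliary epithelium-like class held 145 and 153 cells and passed for 9 of 10 markers, and the Müller glia-like class held 117 and 272 cells and passed for 11 of 12. Shares of cells with a UMI of Slc16a8, Ermn or Slc6a20a, 3 of the RPE markers, were 99.1% and 94.5% in the RPE class, 10.8% and 11.9% in the pigmented ciliary class, 2.76% and 5.88% in the non-pigmented class and 1.71% and 7.35% in the Müller class. The median mitochondrial share of UMIs was 7.83% and 6.57% in the RPE class, 13.7% and 14.4% in the pigmented class, 12.2% and 11.1% in the non-pigmented class and 6.51% and 7.84% in the Müller class. With a limit of 15% on that share, all 9 genes kept their calls against both ciliary classes. B cells and a cluster of T or NK cells mixed with mast cells, in which these genes have no known role in the visual cycle, were pooled as an immune reference for RNA carried over from other cells.

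Coordinates are of GRCm38. Rpe65 (ENSMUSG00000028174, the retinoid isomerohydrolase) lay on chromosome 3 at 159599175 to 159625321 on the plus strand. Lrat (ENSMUSG00000028003, lecithin retinol acyltransferase) lay on chromosome 3 at 82892579 to 82903973 on the minus strand, overlapping the antisense gene Rbm46os. Rdh5 (ENSMUSG00000025350) lay on chromosome 10 at 128913593 to 128922888 on the minus strand, overlapping Bloc1s1 on the same strand. Rdh10 (ENSMUSG00000025921, an all-trans-retinol dehydrogenase) lay on chromosome 1 at 16105774 to 16133734 on the plus strand. Rgr (ENSMUSG00000021804, the RPE retinal G protein-coupled receptor, an opsin that photoisomerises retinal) lay on chromosome 14 at 37034909 to 37048964 on the minus strand. Rrh (ENSMUSG00000028012, peropsin, a related opsin of the RPE microvilli) lay on chromosome 3 at 129804408 to 129822587 on the minus strand. Rlbp1 (ENSMUSG00000039194) lay on chromosome 7 at 79374870 to 79387048 on the minus strand. Stra6 (ENSMUSG00000032327) lay on chromosome 9 at 58063788 to 58153996 on the plus strand, overlapping Ccdc33 and Gm16131. Ttr is ENSMUSG00000061808. The strand setting of the counting was not given in the sources used here, so reads of Lrat, Rdh5 and Stra6 in the overlaps could not be told from those of their neighbours.

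RefSeq promoter windows (GRCm38.p6, 250 bases before to 50 bases after the start site) were matched for 7 of the 9 genes, not for Ttr or Rdh10. They are shown for 4 genes: Rpe65, Lrat and Rgr, which were nearly restricted to the RPE class, and Rlbp1, which was also high in Müller glia. Motifs were searched on both strands, and capitals mark the matches as they read on the printed strand. The windows are chr3:159598931-159599230 (plus) for Rpe65, chr3:82903925-82904224 (minus) for Lrat, chr14:37048965-37049264 (minus) for Rgr and chr7:79386978-79387277 (minus) for Rlbp1, each printed 5′ to 3′ along its gene.
Rpe65: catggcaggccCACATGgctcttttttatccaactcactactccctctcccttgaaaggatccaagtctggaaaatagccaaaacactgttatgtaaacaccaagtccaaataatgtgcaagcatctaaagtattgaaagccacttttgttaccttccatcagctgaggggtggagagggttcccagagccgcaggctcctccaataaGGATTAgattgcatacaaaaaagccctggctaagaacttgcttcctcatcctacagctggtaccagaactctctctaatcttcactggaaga
Lrat: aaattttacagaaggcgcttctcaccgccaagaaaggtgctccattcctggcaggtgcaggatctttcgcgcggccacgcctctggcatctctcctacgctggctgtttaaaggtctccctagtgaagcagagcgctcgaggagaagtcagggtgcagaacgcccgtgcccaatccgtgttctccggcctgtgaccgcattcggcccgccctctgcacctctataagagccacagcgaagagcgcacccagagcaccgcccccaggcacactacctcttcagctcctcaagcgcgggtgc
Rgr: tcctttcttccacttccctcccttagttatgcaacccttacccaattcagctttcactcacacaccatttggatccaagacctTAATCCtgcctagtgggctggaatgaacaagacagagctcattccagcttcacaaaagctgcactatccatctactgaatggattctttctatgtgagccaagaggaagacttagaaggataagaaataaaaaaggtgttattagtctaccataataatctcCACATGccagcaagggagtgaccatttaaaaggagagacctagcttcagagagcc
Rlbp1: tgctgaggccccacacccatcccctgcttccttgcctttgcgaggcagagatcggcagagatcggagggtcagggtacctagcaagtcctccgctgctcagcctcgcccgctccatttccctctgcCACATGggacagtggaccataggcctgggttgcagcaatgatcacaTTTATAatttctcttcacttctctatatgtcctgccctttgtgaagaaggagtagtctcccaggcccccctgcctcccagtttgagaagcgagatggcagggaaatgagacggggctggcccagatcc

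TAATCC, the core recognised by OTX and CRX homeodomain proteins, occurred in 2 of the 10 windows of the 7 genes. It began at position -42 from the start site of Rpe65 and -167 from that of Rgr. It occurred in 7.06% of all 32851 RefSeq promoter windows. CATGTG, the core of the M-box bound by MITF and related factors, occurred in 3 of the 10 windows, against 14.2% of all windows. Its matches began at -239 in Rpe65, -124 in Rlbp1 and -5 in Rgr. TATAAA was found in 2 of the 10 windows, at -78 in Rlbp1 and at -231 in Rrh, against 13.6% of all windows. The palindromic E-box CACGTG was in none of the 7 genes and in 7.15% of all windows. The Lrat window held none of the 4 motifs. No matches overlapped, and a match describes the letters of the window only.

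In the RPE class all 9 genes had their highest level of any class, in both libraries. Levels below are in CPM, a gene's UMIs per 1000000 UMIs of its class (1410250 and 1377927 UMIs in the RPE class), and they were compared between classes and not between genes. Rpe65 stood at 2000 CPM in library 1 (95% Poisson interval 1927 to 2075) and 1830 CPM in library 2 (1759 to 1902), and Lrat at 1290 and 1286 CPM. Rdh5 stood at 3860 and 3770 CPM, and Rdh10 at 2021 and 1265 CPM, which was the widest gap between libraries among the enzymes. The opsins Rgr and Rrh stood at 5513 and 4734 CPM and at 395 and 339.6 CPM. Rlbp1 stood at 2405 and 1928 CPM, Stra6 at 787.1 and 590 CPM, and Ttr at 34960 and 45800 CPM. Library 2 was the lower for 8 genes and the higher for Ttr. The intervals cover counting error only. CPM are not scaled further, while the log2 fold changes below use class totals multiplied by scaling factors (TMM). The 2 measures can therefore differ.

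**Figure D1:**
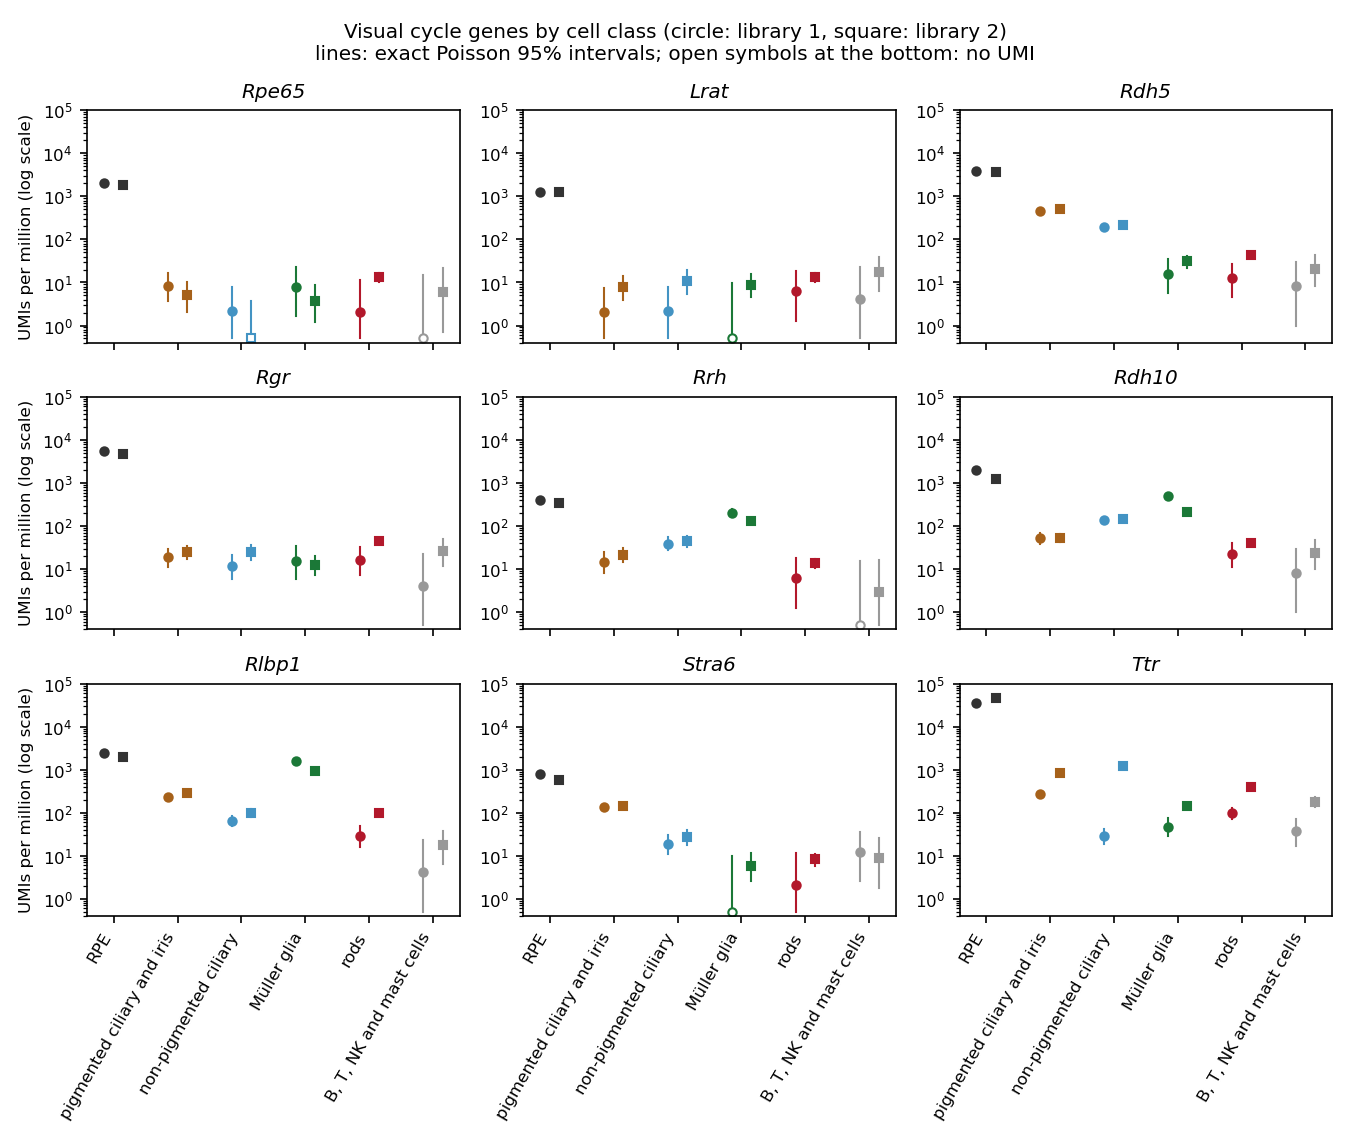
Level of each of the 9 genes (CPM, log axis) in 6 cell classes, 1 point per library with its 95% exact Poisson interval; open symbols mark classes with no UMI. Both RPE points lie above those of the other classes for every gene, by the smallest margin for Rlbp1, whose Müller points stand at 1594 and 937 CPM.

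The genes differed in how much of their signal lay outside the RPE class. RPE cells held 97.2% and 93% of all UMIs of Rpe65 in libraries 1 and 2, 95.3% and 90.7% of those of Rgr, 93.6% and 87.2% of those of Lrat and 96% and 89% of those of Ttr. For Rdh5 the shares were 82.8% and 75.1%, for Stra6 81% and 66.8% and for Rdh10 81.2% and 56.2%. The lowest were those of Rrh, 75.3% and 46.9%, and Rlbp1, 73.4% and 40%. Müller cells held 13.1% and 19.3% of Rlbp1 UMIs and 10.4% and 18.4% of Rrh UMIs. These shares also moved with the number of cells of each class in the pool, and every gene had the lower RPE share in library 2. From library 1 to library 2 the RPE class went from 5.54% to 4.34% of kept cells. Rods went from 9.73% to 32.2%, cone bipolar cells from 2.92% to 8.71% and Müller cells from 3.03% to 4.98%. The part of each class in the lower shares was not tested.

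Most RPE cells carried several of the genes at once. When each cell was thinned to 1000 UMIs, which left out 13 and 21 shallower RPE cells, the median RPE cell had at least 1 UMI of 7 of the 9 genes in library 1 and of 6 in library 2. At least 5 genes were found in 86.6% and 78.2% of RPE cells, and all 9 in 4.98% and 2.78%. The median was 2 and 1 in the Müller class, 0 and 1 in the pigmented ciliary class, and 0 in both libraries in the non-pigmented class and in rods. Ttr was detected in 99% and 96.8% of thinned RPE cells, Rdh5 in 94.5% and 87%, Rgr in 87.6% and 77.8%, Rlbp1 in 84.6% and 73.2% and Rdh10 in 75.1% and 59.3%. Rpe65 was detected in 64.2% and 47.2% (73.8% and 59.9% without thinning), Lrat in 57.7% and 53.7%, Stra6 in 45.3% and 48.6% and Rrh in 32.8% and 28.7%. Among thinned immune reference cells, of which 4 and 0 were too shallow, the shares were 0% and 0.962% for Rpe65 and 4.76% and 11.5% for Ttr.

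**Figure D2:**
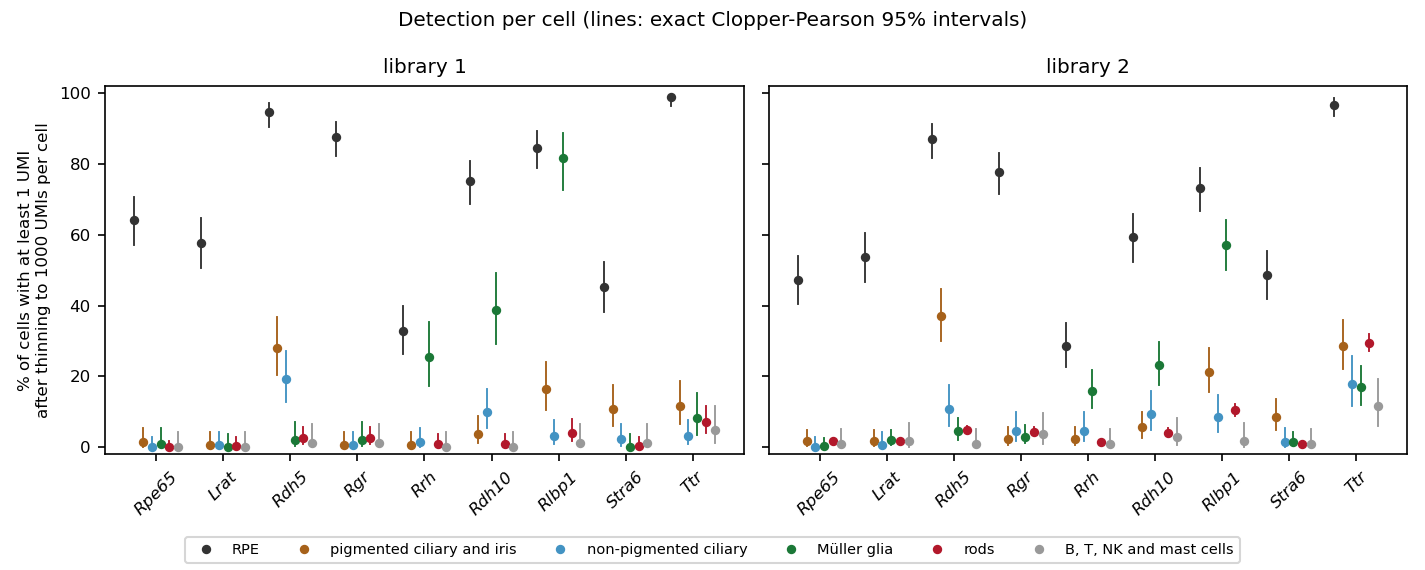
Percent of cells with at least 1 UMI of each gene after thinning to 1000 UMIs per cell, by class and library, with exact Clopper-Pearson 95% intervals. For Rlbp1 the Müller class (81.6% and 57.2%) stands near the RPE class (84.6% and 73.2%), while for Rpe65 the other classes lie near 0.

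Within the RPE class the levels of the 9 genes were not uniform. Finer clustering, again without the 9 genes, gave a large RPE cluster of 187 and 162 cells with median depths of 4716 and 4961.5 UMIs, and a small one of 27 and 75 cells with median depths of 1288 and 1251 UMIs. The small cluster passed for 5 of the 10 RPE markers and the large one for 9, and the red-cell gene Alas2 was among the 10 leading genes of the small one. Its median mitochondrial share was 3.02% and 4.72%, against 9.32% and 8.10% in the large one. All 9 genes had the lower CPM in the small cluster in both libraries. Rdh5 was nearest to its level in the large cluster, at 85.1% and 62% of it, followed over both libraries by Ttr (67.4% and 48.1%), Rpe65 (61.7% and 55.2%) and Rgr (60.5% and 54.5%). Rlbp1 stood at 37.7% and 45%, Lrat at 29.3% and 28.6%, Stra6 at 25% and 34.5%, and Rdh10 at 26.8% and 36.1%. Rrh was lowest, at 16.6% and 21.5%. These are descriptions with no test, since the clusters were made from the same cells, and the part of depth, markers and mitochondrial share in them was not tested.

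**Figure D3:**
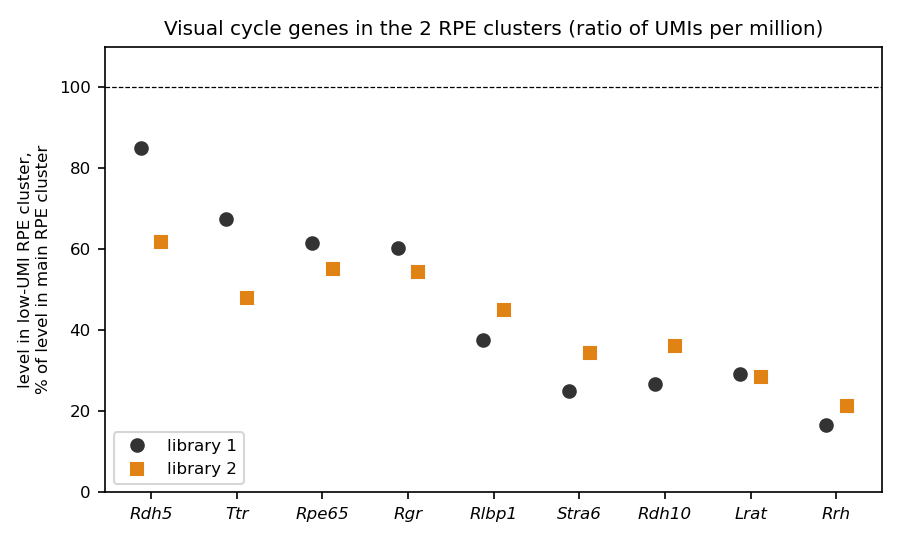
Level of each gene in the small, low-UMI RPE cluster as a percent of its level in the large RPE cluster, 1 point per library. All points lie under 100%, from 85.1% for Rdh5 in library 1 down to 16.6% for Rrh in library 1.

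The first comparison asked how far the visual cycle genes separate the RPE from the pigmented ciliary and iris epithelium, which is continuous with it and shares its pigment. In the pigmented ciliary class Rpe65 stood at 8.43 and 5.06 CPM and Lrat at 2.11 and 7.96 CPM, and Rgr at 19 and 24.6 CPM, all near the immune reference levels of 0 and 5.87, 4.12 and 17.6, and 4.12 and 26.4 CPM. Rdh5 stood well over the immune reference at 452.1 and 505.5 CPM (immune reference 8.24 and 20.6). So did Rlbp1 at 229.7 and 286.4 CPM (4.12 and 17.6) and Stra6 at 132.8 and 141.7 CPM (12.4 and 8.81). Cone bipolar cells held Rlbp1 at 205.4 and 204.9 CPM, in library 1 within the counting interval of the pigmented ciliary class. Rdh10 stood at 51.6 and 53.5 CPM (8.24 and 23.5) and Rrh at 14.8 and 21.7 CPM (0 and 2.94). Ttr stood at 271.9 and 822.2 CPM (37.1 and 176.2).

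Between the RPE and pigmented ciliary classes, 9 of 9 genes were higher in the RPE, while of the 7017 genes tested 5.47% were called higher, 6.66% lower and 12.1% in either direction. A gene was called where the Benjamini-Hochberg adjusted p of edgeR's quasi-likelihood test fell under 0.05 and the log2 fold change reached 1 in size. The median log2 fold change of the 9 genes was 5.31, beside -0.06 over all tested genes. The smallest differences were those of Stra6, 2.66 ± 0.43 (SE; edgeR adjusted p = 3.83e-05), Rdh5, 3.29 ± 0.51 (adjusted p = 1.31e-05), and Rlbp1, 3.45 ± 0.56 (adjusted p = 2.57e-05). Rrh was higher by 4.62 ± 0.44 and Rdh10 by 5.31 ± 0.52 on the log2 scale (adjusted p = 2.97e-09 and 3.17e-09). The largest were those of Rpe65, 8.53 ± 0.75, Lrat, 8.32 ± 0.55, and Rgr, 8.21 ± 0.83 (adjusted p = 4.13e-10, 7.70e-13 and 4.45e-09). Ttr differed by 6.82 ± 0.98 (adjusted p = 4.10e-06). Each of the 9 calls against the pigmented ciliary class held under all 11 alternative settings.

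The second comparison set the RPE against the non-pigmented ciliary epithelium, the inner layer that is continuous with the neural retina. In that class Rpe65 had 2 UMIs in library 1 and none in library 2 (2.18 and 0 CPM, where 3 UMIs in library 2 would be 3.01 CPM), and Lrat stood at 2.18 and 11 CPM and Rgr at 12 and 25.1 CPM. Single cells held much of this signal. In library 1 a cell of 5881 UMIs held the 2 Rpe65 UMIs, the 2 Lrat UMIs and 7 of the 11 Rgr UMIs. In library 2 a cell of 34592 UMIs held 10 of the 11 Lrat and 13 of the 25 Rgr UMIs. Rdh5 stood at 194.2 and 217.5 CPM, Rdh10 at 137.5 and 147.3 CPM, Rlbp1 at 65.5 and 99.2 CPM, Rrh at 39.3 and 45.1 CPM and Stra6 at 18.6 and 27.1 CPM. Rdh5, Rdh10, Rlbp1 and Rrh exceeded their immune reference levels in both libraries, while for Stra6 the counting intervals overlapped those of the immune reference class. All 9 genes were higher in the RPE, where 7.71% of tested genes were called higher, 9.88% lower and 17.6% in either direction, with a median log2 fold change of 5.27 beside -0.04 over all tested genes. The fitted values ran from 3.41 ± 0.40 (SE) for Rrh and 3.86 ± 0.48 for Rdh10, through 4.50 ± 0.54 for Rdh5, 5.14 ± 0.61 for Rlbp1 and 5.27 ± 0.52 for Stra6, to 7.97 ± 0.54 for Lrat and 8.46 ± 0.85 for Rgr. The edgeR adjusted p-values of these 7 ran from 9.15e-13 for Lrat to 1.83e-07 for Rdh10. For Rpe65 the pooled UMIs, 5341 against 2, gave a ratio of CPM of 1830 with a 95% counting interval of 507 to 15100. All 9 calls held under all 11 alternative settings.

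Ttr, which lies on chromosome 18 at 20665280 to 20674321 (plus strand, GRCm38), rested on 1 cell in the non-pigmented class. It stood at 28.4 CPM in library 1 and 1231 CPM in library 2. The same cell of 34592 UMIs held 1146 of the 1228 Ttr UMIs of library 2, with 59 Rdh5, 13 Rgr and 10 Lrat UMIs. Without that cell the level in library 2 was 85.2 CPM, under the immune reference 176.2 CPM. The RPE was higher for Ttr by 7.13 ± 1.00 on the log2 scale (SE; edgeR adjusted p = 1.40e-06), by 10.44 in library 1 alone and 5.51 in library 2 alone.

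**Figure D4:**
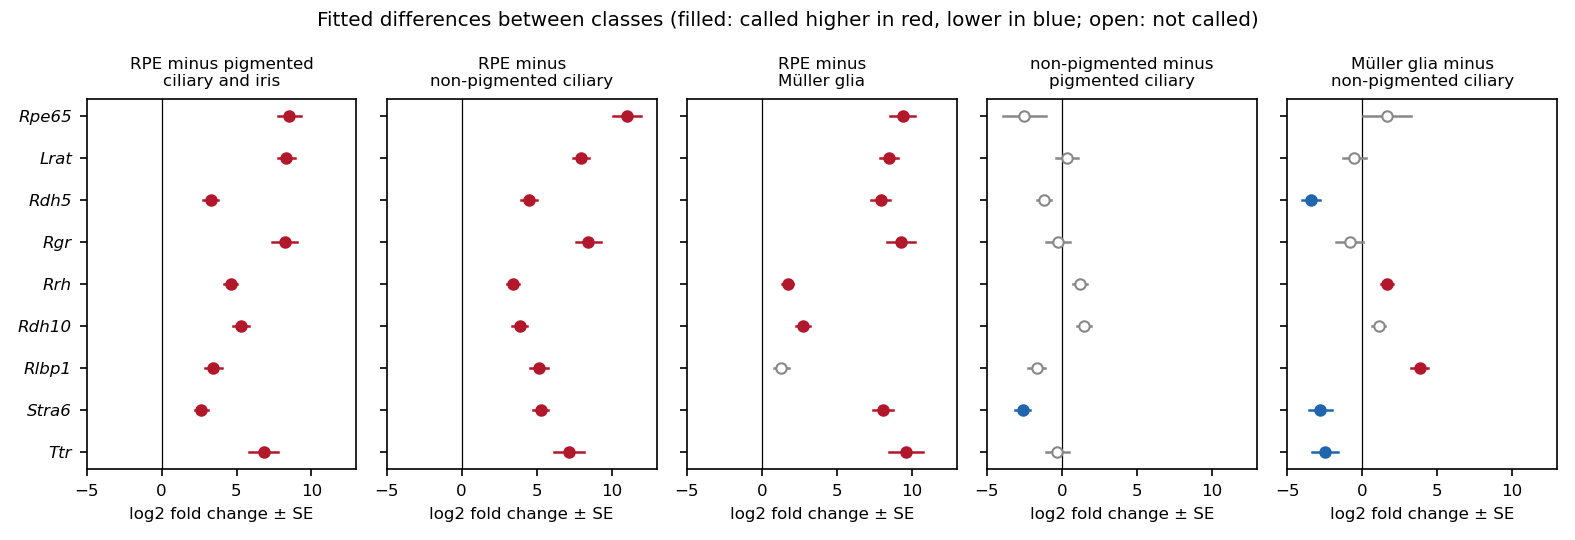
Log2 fold change ± SE of each gene from the edgeR fit in the 5 comparisons between classes. All values for the RPE against the other 3 classes are above 0, with Rlbp1 against Müller glia lowest at 1.29.

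The third comparison set the RPE against Müller glia, the other cell type in which several of these genes are known to act. Müller glia carried 3 of the genes at levels well over the immune reference class. Rlbp1 stood at 1594 CPM (95% Poisson interval 1470 to 1726) and 937 CPM (886.3 to 989.7), and after thinning it was found in 81.6% and 57.2% of Müller cells (89.7% and 76.5% without thinning), against 1.19% and 1.92% of immune reference cells. Rdh10 stood at 511.1 and 212.3 CPM and was found in 38.8% and 23.4% of thinned Müller cells, against 0% and 2.88% of immune reference cells. Rrh stood at 202.9 and 134.7 CPM and was found in 25.5% and 15.9%, against 0% and 0.962%. Thinning left out 19 and 71 Müller cells as too shallow. Rpe65 (7.90 and 3.66 CPM), Lrat (0 and 8.78), Rgr (15.8 and 12.4), Rdh5 (15.8 and 30.7), Stra6 (0 and 5.86) and Ttr (47.4 and 147.1) had counting intervals that overlapped those of the immune reference class in both libraries.

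All 3 Müller genes were lower in library 2, where the Müller class also held more rod RNA. The summed level of 9 rod markers in Müller cells was 4345 and 13640 CPM, against 307.7 and 2965 CPM for the rod sum in the RPE class and 329.5 and 2270 CPM in the non-pigmented class. Rods themselves held Rlbp1 at 28.9 and 101 CPM, Rdh10 at 22.7 and 40 CPM and Rrh at 6.19 and 13.6 CPM, all under the Müller levels. The make-up of the class also differed between libraries at the finer clustering. A cluster with Müller, astrocyte and rod markers, led by Gfap, gave 6 and 84 of its cells, and a cluster named rod gave 4 and 23. In the finer cluster with all 12 Müller markers, of 106 and 158 cells, Rlbp1 stood at 1738 and 1200 CPM, Rdh10 at 549.6 and 283 CPM and Rrh at 218 and 196.5 CPM, so the gap of Rrh was smaller there. The part of the rod RNA itself was not tested.

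Between the RPE and Müller classes, 8 of 9 genes were higher in the RPE, where 11.8% of tested genes were called higher, 11.6% lower and 23.4% in either direction. The median log2 fold change of the 9 genes was 8.06, beside -0.1 over all tested genes. Rlbp1 missed the threshold, with a log2 fold change of 1.29 ± 0.51 (SE; edgeR adjusted p = 0.0606). It was higher in the RPE in 2 of 2 libraries, by 1.15 and 1.65, and it was called in 5 of the 11 alternative settings, with adjusted p from 0.000591 to 0.255. Rrh was higher in the RPE by 1.74 ± 0.37 (adjusted p = 5.37e-04) and Rdh10 by 2.76 ± 0.46 (adjusted p = 1.94e-05). The other 6 differed by more, from 7.92 ± 0.66 for Rdh5 and 8.06 ± 0.67 for Stra6, through 8.48 ± 0.57 for Lrat, 9.28 ± 0.90 for Rgr and 9.39 ± 0.82 for Rpe65, to 9.62 ± 1.12 for Ttr, with edgeR adjusted p-values from 4.74e-13 for Lrat to 3.28e-08 for Ttr. Lrat and Stra6 had no UMI in the Müller cells of library 1, so their fitted values depend on the prior count. From pooled UMIs the RPE to Müller ratio of CPM was 187 for Lrat (95% counting interval 107 to 363) and 150 for Stra6 (76.2 to 349).

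The 2 ciliary layers were compared with each other. The non-pigmented class was lower than the pigmented class for Stra6, by a log2 fold change of -2.61 ± 0.50 (SE; edgeR adjusted p = 6.47e-04), and it was lower in 2 of 2 libraries and called under all 11 alternatives. Stra6 was the 1 called gene of the 9, where 4.06% of tested genes were called higher, 2.61% lower and 6.67% in either direction. The median over the 9 genes was -0.32, beside -0.03 over all tested genes. Rlbp1 and Rdh5 had negative values, -1.69 ± 0.55 (adjusted p = 0.0555) and -1.22 ± 0.48 (adjusted p = 0.148), and Rdh10 and Rrh had positive ones, 1.45 ± 0.48 (adjusted p = 0.0613) and 1.21 ± 0.46 (adjusted p = 0.127). None of these 4 passed, although each kept its sign in both libraries. Rdh10 was called in 6 of the 11 alternative settings, Rlbp1 in 5, and Rdh5 and Rrh in 3 each. Ttr had a log2 fold change of -0.32 ± 0.78 (adjusted p = 0.919), with -3.20 in library 1 and 0.61 in library 2, and it was called lower in the non-pigmented class, at -2.99, only without the 5% of cells with the most UMIs.

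Müller glia were compared with the non-pigmented ciliary class, which is of the same neuroepithelial origin. Rlbp1 was higher in Müller glia by a log2 fold change of 3.84 ± 0.58 (SE; edgeR adjusted p = 9.59e-06) and Rrh by 1.67 ± 0.40 (adjusted p = 4.02e-03), and both calls held under all 11 alternatives. Rdh5 was lower in Müller glia, by -3.42 ± 0.58 (adjusted p = 6.14e-05), also under all 11. In all, 2 of the 9 genes were called higher and 3 lower, where 6.23% of tested genes were called higher and 8.28% lower (14.5% in either direction). The median over the 9 genes was -0.51, beside 0 over all tested genes. Stra6 was lower by -2.79 ± 0.78 (adjusted p = 0.0125), with 17 and 27 UMIs in the non-pigmented class against 0 and 8 in Müller glia, and it was called in 7 of the 11 alternatives. Ttr was called lower, at -2.49 ± 0.86 (adjusted p = 0.0448), but the value was 0.42 in library 1 and -3.37 in library 2, where 1 non-pigmented cell held 93.3% of the Ttr UMIs. It was called in 4 of the 11 alternatives, and without the 5% of cells with the most UMIs the Ttr value was 0.62. Rdh10 had a value of 1.10 ± 0.46 (adjusted p = 0.104), with 1.59 and 0.20 in the 2 libraries.

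Because RNA from RPE cells can enter other droplets, the UMIs of each gene outside the RPE were set beside those of Rgr, Rpe65 and Lrat, which were nearly restricted to it. If all UMIs of a gene in a class had come with RPE RNA, its UMIs per UMI of these 3 genes would equal that in RPE cells, a ratio of 1. The ratios are a description with 95% counting intervals and have no test between libraries. In Müller glia the ratio was 246 and 153 in libraries 1 and 2 for Rlbp1, 191 and 125 for Rrh and 93.9 and 52.9 for Rdh10. For Rdh5 it was 1.52 (0.445 to 4.78) and 2.57 (1.60 to 4.17), and for Ttr 0.504 (0.215 to 1.27) and 1.01 (0.702 to 1.50). Ttr in Müller glia and in rods, where it was 1.01 (0.527 to 2.08) and 0.936 (0.834 to 1.05), had intervals that included 1 in both libraries.

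In the pigmented ciliary class the ratio was 50.3 and 50.2 for Stra6, 34.9 and 28 for Rdh5 and 28.5 and 31 for Rlbp1. It was 11.1 and 13.3 for Rrh, 7.62 and 8.83 for Rdh10 and 2.32 (1.57 to 3.56) and 3.75 (2.84 to 5.05) for Ttr. These ratios rest on few UMIs of Rpe65, Lrat and Rgr. In library 1 the class held 8, 2 and 18 of them, and 1 cell of 7255 UMIs held 18 of these. In library 2 it held 7, 11 and 34, and 1 cell of 9575 UMIs held 14 of these. How close the 2 libraries came therefore depended on single cells. Values well over 1 also occurred in classes unrelated to the RPE. Cone bipolar cells gave 9.43 and 20.8 for Rrh and 13.9 (8.97 to 22.4) and 30.6 for Rlbp1. In library 1 both cone bipolar values were under those of the pigmented ciliary class. Fibroblasts gave 13.1 and 8.55 for Rdh10. The immune reference itself gave 2.92 (1.09 to 7.14) for Rdh10 in library 2. For Stra6 and Rdh5 the cone bipolar class gave 1.72 and 2.52 and 1.32 and 1.31, and fibroblasts gave 3.36 and 3.99 and 6.39 and 2.36. In the non-pigmented class the ratio was 53.5 and 28.9 for Rrh, 36.6 and 25.3 for Rdh10, 27.1 and 12.5 for Rdh5, 14.6 and 11.2 for Rlbp1 and 12.7 and 9.98 for Stra6. Here too 1 cell per library held most UMIs of Rpe65, Lrat and Rgr, with 11 in library 1 and 23 in library 2. Ttr in the non-pigmented class gave 0.437 (0.223 to 0.887) in library 1 and 5.85 (4.20 to 8.39) in library 2, the library with the single Ttr-rich cell. When all cells outside the RPE class with a UMI of Slc16a8, Ermn or Slc6a20a were left out, which took 15 and 26 pigmented ciliary cells, the mean level in the pigmented ciliary class was 3.63 CPM for Rrh in place of 18.2 CPM, and 113 CPM for Ttr in place of 547 CPM. This setting was chosen after the data had been seen.

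**Figure D5:**
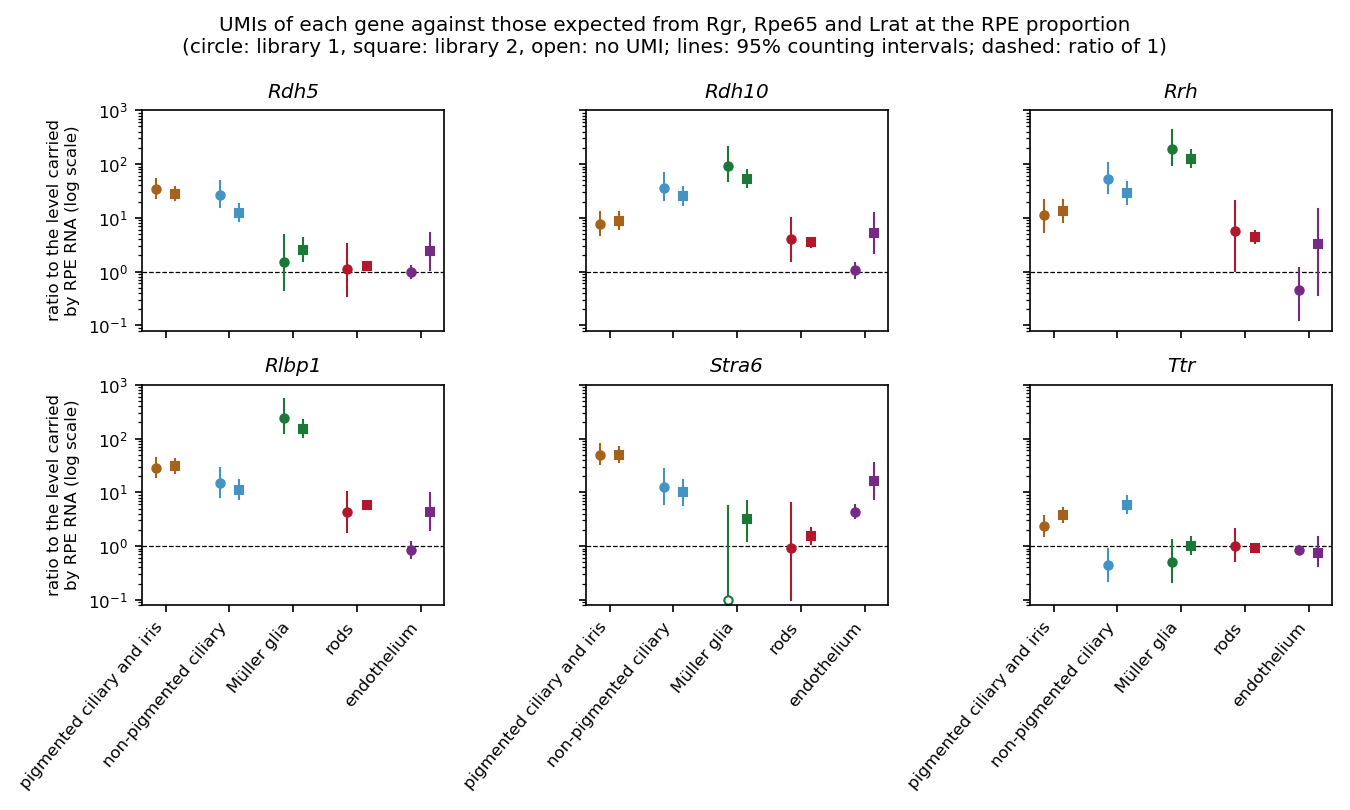
UMIs of 6 genes per UMI of Rgr, Rpe65 and Lrat together, relative to the same quantity in RPE cells (log axis), in 5 classes and 2 libraries with 95% counting intervals. Rlbp1, Rrh and Rdh10 in Müller glia lie at 52.9 or higher, while Ttr in rods lies at 1.01 and 0.936.

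Other classes held lower levels. Outside the RPE, ciliary and Müller classes the order of Rlbp1 was led by cone bipolar cells, at 205.4 and 204.9 CPM, next below the pigmented ciliary class and, in library 1, within the counting interval of that class (200.2 to 262.3 CPM). In library 2 Rlbp1 also stood at 101 CPM in rods, 95.1 CPM in horizontal cells, 88.6 CPM in rod bipolar cells, 83.5 CPM in the mixed class of cones and rods and 68 CPM in amacrine cells, all above the immune reference (17.6 CPM) and beside 99.2 CPM in the non-pigmented class. In library 1 these 5 classes stood at 25.4 to 79.9 CPM for Rlbp1. Stra6 stood at 64.5 and 36.4 CPM in endothelium, and after cells with at least 10 Ttr UMIs were left out at 63.8 and 37.6 CPM; its ratio to RPE RNA was 4.36 (3.30 to 5.71) and 16.2 (7.50 to 35.4). Lrat stood at 20.6 and 33.5 CPM in melanocytes, against 4.12 and 17.6 CPM in immune reference cells. Rpe65 outside the RPE was highest in endothelium in library 1, at 26.3 CPM, and in an unnamed cluster in library 2, at 95.4 CPM. In these, 2 cells and 1 cell also held 95.9% and 91.6% of the Ttr UMIs of their class and library, and without them the Rpe65 levels were 0 and 3.27 CPM. The order below the RPE class was therefore the same in both libraries for Rlbp1 (Müller, pigmented ciliary, cone bipolar), Rrh (Müller, non-pigmented, cone bipolar) and, in the first 3 places counting the RPE, Rdh5 and Rdh10, but not for Rpe65, Lrat or Rgr.

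Across the 44 profiles of 22 classes in 2 libraries, the 9 genes formed no single pattern. Pearson's r of log2 CPM between them was highest for Rgr and Rpe65 (0.892), Lrat and Ttr (0.869), Rgr and Ttr (0.869) and Rpe65 and Ttr (0.854), and lowest for Lrat and Rrh (0.441) and Lrat and Rlbp1 (0.505). Rlbp1 correlated most with Rrh (0.838) and Rdh5 with Stra6 (0.841). The profiles share libraries, depth and carried-over RNA, so the values are descriptions. Among 4024 other held-out genes, those most like Rpe65 were Serpine3 (r = 0.871), Slc7a10 (0.835), an amino acid transporter, and Inpp5k (0.826), an inositol phosphatase. The same 3 were nearest to Lrat (Inpp5k 0.809, Slc7a10 0.738, Serpine3 0.732) and to Rgr (0.838, 0.820 and 0.822). Nearest to Ttr were Car12 (0.827), a carbonic anhydrase, Inpp5k (0.820) and Gip (0.817), nearest to Rdh5 were Degs1 (0.865), Gip (0.860) and Clic6 (0.845), and nearest to Stra6 were Clic6 (0.886), Mfsd7c (0.883) and Abcc4 (0.863). Lrp2, the endocytic receptor megalin, was among the nearest to Rrh (0.853, with Mfap3l 0.842 and Cspg5 0.801), Rlbp1 (0.795, with Cspg5 0.845 and Gldc 0.764) and Rdh10 (0.807, with Clu 0.811 and Fads3 0.777).

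A wider list of 38 genes of retinoid handling was examined in the same fit, of which 23 were tested, 13 were under the filter on low counts and 2 were not among the genes counted. In the RPE 5 were higher and 0 lower than in the pigmented ciliary class, 21.7% and 0% of the 23, beside 5.47% and 6.66% of all tested genes. Against the non-pigmented class 6 were higher and 1 lower, 26.1% and 4.35%, beside 7.71% and 9.88%. Against Müller glia 9 were higher and 7 lower, 39.1% and 30.4%, beside 11.8% and 11.6%. The medians of their log2 fold changes were 0.51, 0.36 and 0.66. Rdh11, a retinol dehydrogenase, stood at 107.1 and 108.9 CPM in the RPE against 49.5 and 48.5 CPM in the pigmented ciliary class, 14.2 and 19 CPM in the non-pigmented class and 42.2 and 27.8 CPM in Müller glia. It was higher in the RPE by log2 fold changes of 1.42 ± 0.30, 2.97 ± 0.35 and 2.32 ± 0.34 in these 3 comparisons (SE; edgeR adjusted p = 1.05e-03, 7.78e-08 and 2.74e-06).

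Degs1, a sphingolipid desaturase also reported to isomerise retinol, had a pattern of both pigmented layers. It stood at 992.7 and 915.9 CPM in the RPE and 765.1 and 770.9 CPM in the pigmented ciliary class. The non-pigmented layer had 200.8 and 256.6 CPM, and Müller glia had 123.8 and 66.6 CPM. It was higher in the RPE than in the non-pigmented class by 2.33 ± 0.29 and than in Müller glia by 3.97 ± 0.32, and lower in the non-pigmented than in the pigmented class at -1.73 ± 0.28 (SE; edgeR adjusted p = 1.24e-07, 1.36e-11 and 6.72e-05). Retsat, a retinol saturase, was higher in the RPE by 1.34 and 3.53 than in the same 2 classes (adjusted p = 0.0486 and 3.82e-05). Slc27a1, which encodes the fatty acid transport protein FATP1, reported to inhibit RPE65, was higher in the RPE than in the pigmented ciliary class by 1.94 ± 0.38 (adjusted p = 3.37e-04). It was not called against the other 2 classes, and Müller glia had 100.1 and 70.3 CPM beside 92.9 and 79.8 CPM in the RPE. Scarb1, a scavenger receptor that takes up carotenoids, was higher in the RPE than in the pigmented and non-pigmented classes by 1.30 and 1.22 (adjusted p = 5.98e-03 and 8.94e-03). Against Müller glia it was not called, at -0.12.

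Other genes of the wider list differed mainly against the non-pigmented class or Müller glia. Dhrs7, a short-chain dehydrogenase, stood at 20.6 and 31.9 CPM in the RPE and 130.9 and 182.4 CPM in the non-pigmented class, and was lower in the RPE by -2.30 ± 0.42 (SE; edgeR adjusted p = 8.17e-05). It was also lower in the RPE than in Müller glia, by -1.68 ± 0.43 (adjusted p = 3.15e-03), and higher in the non-pigmented than in the pigmented class, by 1.95 ± 0.41 (adjusted p = 1.53e-03). Dhrs3, a retinal reductase, was lower in Müller glia than in the non-pigmented class, by -2.0 ± 0.34 (adjusted p = 7.02e-05), and higher in the RPE than in Müller glia by 1.59 ± 0.34 (adjusted p = 5.57e-04). Abca4, the retinoid flippase of photoreceptor discs, stood at 252.4 and 257.6 CPM in the RPE and was higher there than in Müller glia by 1.84 ± 0.63 (adjusted p = 0.0291). Müller glia had 60.6 and 198.4 CPM of Abca4, so the gap was wider in library 1. The level was not particular to the RPE, with 172.8 and 263.9 CPM in the pigmented and 258.6 and 199.5 CPM in the non-pigmented class. Rods had 757.3 and 449.3 CPM. The photoreceptor genes Opn1sw and Rbp3 were lower in the RPE than in Müller glia, by -3.29 and -2.22 (adjusted p = 0.0400 and 0.0497), in the comparison where the rod marker sum of Müller cells was also the higher. Between the ciliary layers 1 of the 23 wider genes was higher and 2 lower in the non-pigmented class, 4.35% and 8.7%, beside 4.06% and 2.61% of all tested genes. In Müller glia 4 were higher and 4 lower than in the non-pigmented class, 17.4% each, beside 6.23% and 8.28%.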

How the data were processed

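The deposited matrices hold whole-number UMI counts per gene and barcode, made by the authors with Cell Ranger 3.1.0 per the file headers; the submitters' processing notes also name CASAVA 1.8, Seurat and the mm10 (GRCm38) build. The annotation release and strand setting were not given in the sources used here. A second deposited copy of each matrix differed in 0 entries.

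Barcodes needed 500 detected genes and a mitochondrial share of no more than 30%. Scrublet marked 3 and 0 cells, under 0.5%, so it did not work here and doublets were in effect kept. Genes were divided into a clustering set (16824 genes, with all markers) and a held-out set (16632 genes, with the 9 genes and the wider list). Cells were clustered with scanpy 1.11.5 (2000 variable genes, 30 components, Leiden resolution 1). Counts were summed per class and library and tested with edgeR 4.0.16 (R 4.3.3; quasi-likelihood test, TMM, class plus library) over 44 profiles with 21 residual degrees of freedom, with p-values adjusted over 7017 held-out genes. Classes come from the same cells, so the tests ask how evenly 2 libraries show a difference between marker-defined classes. Same-numbered profiles come from the same pool, which is why library is a term of the fit. Correlations used log2 CPM with a prior count of 2. On simulated counts for the RPE and pigmented ciliary comparison, with 6894 genes, 22% of 2-fold and 92% of 4-fold changes were recovered, with 1 unchanged gene among 115 calls. A 2-fold change lies on the threshold of a log2 fold change of 1, which limits its recovery at any depth. Changed genes were drawn only from those above a minimum of expected UMIs.

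Members and lists were chosen with earlier results of these data known, and the rule for naming clusters was written after marker levels had been seen. Some genes that met the naming rule are not reported here. Named were the 9 genes, wider-list genes called anywhere whose higher class held 50 or more UMIs per library, and the 3 held-out genes most correlated with each of the 9, among genes reaching 50 UMIs in some class of each library; ribosomal, mitochondrial, RIKEN and predicted genes were not considered. Alternatives covered scaling, the filter, DESeq2 1.42.0, the classes in the fit, cell filters, clustering, the gene split and the library term.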

Additional observations from a re-analysis of the deposited data

How the results depend on the processing

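Of 585 recomputed log2 fold changes of the 9 genes, 519 counted as the same, 26 newly passed the threshold, 9 lost it, 17 moved and 14 changed sign. Under the 11 alternatives, the same meant an unchanged sign and call, whatever the size of the shift. In single libraries, which have no calls, it meant an unchanged sign and a shift smaller than the standard deviation between the 2 libraries. Moved meant a larger shift there. A main value that lies between the 2 libraries tends to count as the same. All members stayed called against both ciliary classes, and 8 or 9 against Müller glia, under 11 alternatives. The main count of 1 member called between the ciliary layers became 5 without the filter on low counts, 5 with only the 4 described classes fitted, 2 with at most 15% mitochondrial UMIs, 3 at Leiden resolution 2, 3 with another gene split, 4 without the 5% of cells with the most UMIs, and 3 without cells outside the RPE holding a UMI of the RPE markers Slc16a8, Ermn or Slc6a20a, a setting added after seeing the data. The 5 members called between Müller glia and the non-pigmented class became 3 with another gene split.

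Without the replicate block for library, the members called between Müller glia and the non-pigmented class were 3, and the wider genes called fell from 5 to 3 for the RPE against the pigmented class, from 16 to 9 for the RPE against Müller glia and from 8 to 5 for Müller glia against the non-pigmented class. The block moved no other count of calls of these lists by over 1.5 times. Wider genes called for the RPE against Müller glia were 8 at Leiden resolution 2 and 10 with DESeq2, and for the RPE against the pigmented class 3 with at most 15% mitochondrial UMIs. Between the ciliary layers the wider count of 3 became 5 without the filter, 6 with 4 classes fitted and 5 without the cells with the most UMIs. Calls could not be recomputed with 1 library, which leaves no residual degrees of freedom.

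Signs changed for genes with few UMIs or few cells behind them. For Lrat between the non-pigmented and pigmented classes (0.35) the value was -0.21 with at most 15% mitochondrial UMIs, -0.95 without the cells with the most UMIs and -2.65 without cells holding one of these 3 markers. For Lrat between Müller glia and the non-pigmented class (-0.51) it was 0.02 with another gene split and 1.65 and 2.42 in the latter 2 settings. For Rgr it was 0.12 without cells holding one of these 3 markers between Müller glia and the non-pigmented class (-0.82), and single libraries gave 0.09 and -1.19. Between the ciliary layers (-0.24) single libraries gave Rgr -0.61 and 0.05. Ttr between the ciliary layers (-0.32) was 0.21 without the replicate block and -3.20 and 0.61 in single libraries. Ttr between Müller glia and the non-pigmented class (-2.49) was 0.62 without the cells with the most UMIs, 0.67 without cells holding one of these 3 markers, and 0.42 and -3.37 in single libraries. The non-pigmented cell that held most Ttr UMIs of library 2 also held 10 of the 11 Lrat and 13 of the 25 Rgr UMIs there. Without that cell Lrat stood at 1.04 CPM in place of 11 CPM, and Rgr at 12.5 CPM in place of 25.1 CPM. The cause of the changes of sign was not tested. Upper-quartile scaling moved the median over all tested genes from -0.1 to -0.23 for the RPE against Müller glia. Depth limits what could be detected for Rpe65 and Lrat outside the RPE, which had 2 and 0 and 2 and 11 UMIs in the non-pigmented class.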

Other observations

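A few cells of the pigmented ciliary and iris class held most of its Ttr. Cells with at least 10 Ttr UMIs were 6 of 139 in library 1 and 15 of 218 in library 2, and they held 78.7% and 84% of the Ttr UMIs of the class. Of these cells, 5 and 13 had at most 1 UMI of Rgr, Rpe65 and Lrat together. Ttr stood at 5993 and 5044 CPM in the picked cells, against 60.1 and 152.5 CPM in the other cells of the class. Rdh5 stood at 944.7 and 1093 CPM against 433.9 and 412.2 CPM, and Stra6 at 531.4 and 353.9 CPM against 118 and 108.1 CPM. Rlbp1 stood at 797.1 and 528.2 CPM against 208.7 and 248 CPM, and Rrh at 147.6 and 132 CPM against 9.84 and 4.19 CPM. The cells were picked by their Ttr count after it had been seen, so these are values with no test.

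Opn4, which encodes the non-visual opsin melanopsin, fell outside the rule for named genes because of its low counts and was singled out after its values were seen. It had 35 and 15 UMIs in the RPE class (24.8 and 10.9 CPM), 19 and 14 in the pigmented ciliary class (20 and 10.1 CPM) and 13 and 8 in the non-pigmented class (14.2 and 8.02 CPM). Müller glia and rods had 0 UMIs in both libraries, which allows up to 7.90 and 2.20 CPM in Müller glia. The edgeR adjusted p was 2.39e-04 for the RPE against Müller glia and 4.19e-03 for Müller glia against the non-pigmented class.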
